A study of Arabidopsis thaliana with 3 samples.

Results

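The 10 genes described here control the stem cells of the floral meristem and the end of their activity: WUS, CLV1, CLV2, CLV3, KNU, SUP, ULT1, PAN, LUG and SEU. They were chosen by name for this role, with earlier results of these data known. Each was set against the DNA regions bound in vitro by SEP3-AGIAP1. This is a complex of the MADS transcription factors SEPALLATA3 (SEP3) and a chimera of AGAMOUS (AG). The chimera carries the Intervening domain (I domain) of APETALA1 (AP1), and the complex is written SEP3-AG(API-I) in the labels. The window of a gene ran over its body and the 3000 bp before its start and 1000 bp after its end, and a gene was called bound if this window held a peak's midpoint. By this rule 3 of the 10 genes (30%) were bound, against a background of 18.0% of all protein-coding genes. CLV2, SUP and PAN had 1 peak each, and WUS, CLV1, CLV3, KNU, ULT1, LUG and SEU had none. The members were thus 10 of the 27444 protein-coding genes, and their windows held 3 of the 3552 peaks of the series.

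The binding was measured by sequential DNA-affinity purification and sequencing (seq-DAP-seq), in which a complex of 2 tagged proteins translated in vitro is purified by each tag in turn and mixed with sheared, naked genomic DNA. All 3 samples are replicates of this 1 complex on DNA of Arabidopsis thaliana plants grown for 2 weeks, and the labels name no other genotype or treatment. The DNA carries neither chromatin nor the other proteins of a flower, so the peaks describe binding to naked DNA in vitro and not occupancy in a tissue. The deposited list joins the 3 replicates and gives positions alone, so neither a spread between replicates nor the depth or height of a peak could be computed from it, and no test between groups was possible.

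In the shoot, the homeodomain protein WUS keeps the cells above it in the stem cell state, and these cells secrete the peptide CLV3, which acts through CLV1, CLV2 and other receptors to restrain WUS. In the flower this loop is ended by AG, which represses WUS both directly and through the zinc finger repressor KNU, so that the meristem is used up in the carpels. SUP, another zinc finger repressor, acts at the boundary of stamens and carpels, ULT1 and PAN promote the expression of AG, and LUG and SEU form a co-repressor that keeps AG out of the outer organs. MADS proteins bind the CArG box, whose canonical form is CC, then 6 bases that are each A or T, then GG.

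The sequences below are the best sites of the 3 peaks at these genes, and they are shown because they differ in how closely they match this box. Each is given on the strand of the named gene with 7 bp on either side of the 16 bp site (TAIR10), and capitals mark the 10 bp core. The first lies on chromosome 3 (8241317 to 8241332), the second on chromosome 1 (24285764 to 24285779) and the third on chromosome 1 (25768982 to 25768997).
SUP: atccacttttCCATTTTTGGtataaaactt
CLV2: cctgatttttACAAAAAAGGcaacatttct
PAN: caatttcattACAAAAATGGtatttatcgg
The core at SUP was a canonical box. Those at CLV2 and PAN each had 1 mismatch to it.

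Sites were scored in bits with a palindromic matrix of 16 bp, fitted to all peaks other than these 3. None of the 3 thus contributed to the matrix that scored it. A score is log2 of the likelihood ratio to the base composition of all peaks, these 3 included. The fit started from a CArG box with even flanks. It ended with T at positions 1 and 2 in 74.1% and 77.7% of sites, the C at position 4 in 87.6%, and the reverse complement of these on the other side. A score of 7.80 bits or more, which occurs once per 2000 bp of the genome, was counted as a site. Over all peaks the best score had a median of 10.7 bits, with quartiles of 8.73 and 12.7 bits.

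SUP held the peak with the strongest site of the 3. This peak, on chromosome 3 from 8241141 to 8241540, was centred 915 bp before the start of SUP (AT3G23130, plus strand, 8242256 to 8243372), and no other protein-coding gene had it in its window. Its best site scored 14.7 bits, more than the best site of 92.6% of all peaks, and lay 17 bp from the midpoint. The median distance over all peaks was likewise 17 bp. A second site of 8.35 bits followed, with 45 bp between the inner edges of the cores. The stretch of the promoter with both, in capitals, is given because it holds the only canonical box in the peaks of the 10 windows (chromosome 3, 8241307 to 8241397, plus strand).
SUP promoter: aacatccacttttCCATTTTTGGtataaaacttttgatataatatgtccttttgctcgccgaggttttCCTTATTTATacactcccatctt
A canonical box was present in 15.96% of all peaks, and 25.7% of peaks had 2 sites.

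CLV2, the receptor-like protein of the CLAVATA pathway, had its peak 975 bp upstream of its start (AT1G65380, plus strand of chromosome 1, 24286742 to 24289329). The peak, from 24285567 to 24285966, lay within the divergent neighbour AT1G65370, with its midpoint in an untranslated exon 580 bp downstream of the start of that gene, which was thus the nearer start. It held 4 sites, where 6.11% of all peaks held 3 or more. The best of them scored 11.4 bits, above 58.0% of peaks, and was centred 4 bp from the midpoint. The others scored 9.32, 8.69 and 7.91 bits. The closest pair of sites was 23 bp apart between core edges, and the other pairs were 102 to 316 bp apart.

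PAN, a bZIP transcription factor, had its peak downstream, with the midpoint 558 bp past the end of the gene (AT1G68640, minus strand of chromosome 1, 25769576 to 25772650). The peak, from 25768818 to 25769217, lay in an intron of the converging gene AT1G68630, 479 bp from its start. Its single site scored 7.83 bits, just over the threshold and above 15.7% of peaks. The PAN window held stronger sites outside the peak, up to 9.96 bits in an intron of PAN. The peaks of CLV2 and PAN thus lay within another gene, and with each peak given to the nearest gene start alone only SUP of the 10 genes kept one, where 11.7% of all protein-coding genes had one by that rule.

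**Figure D1:**
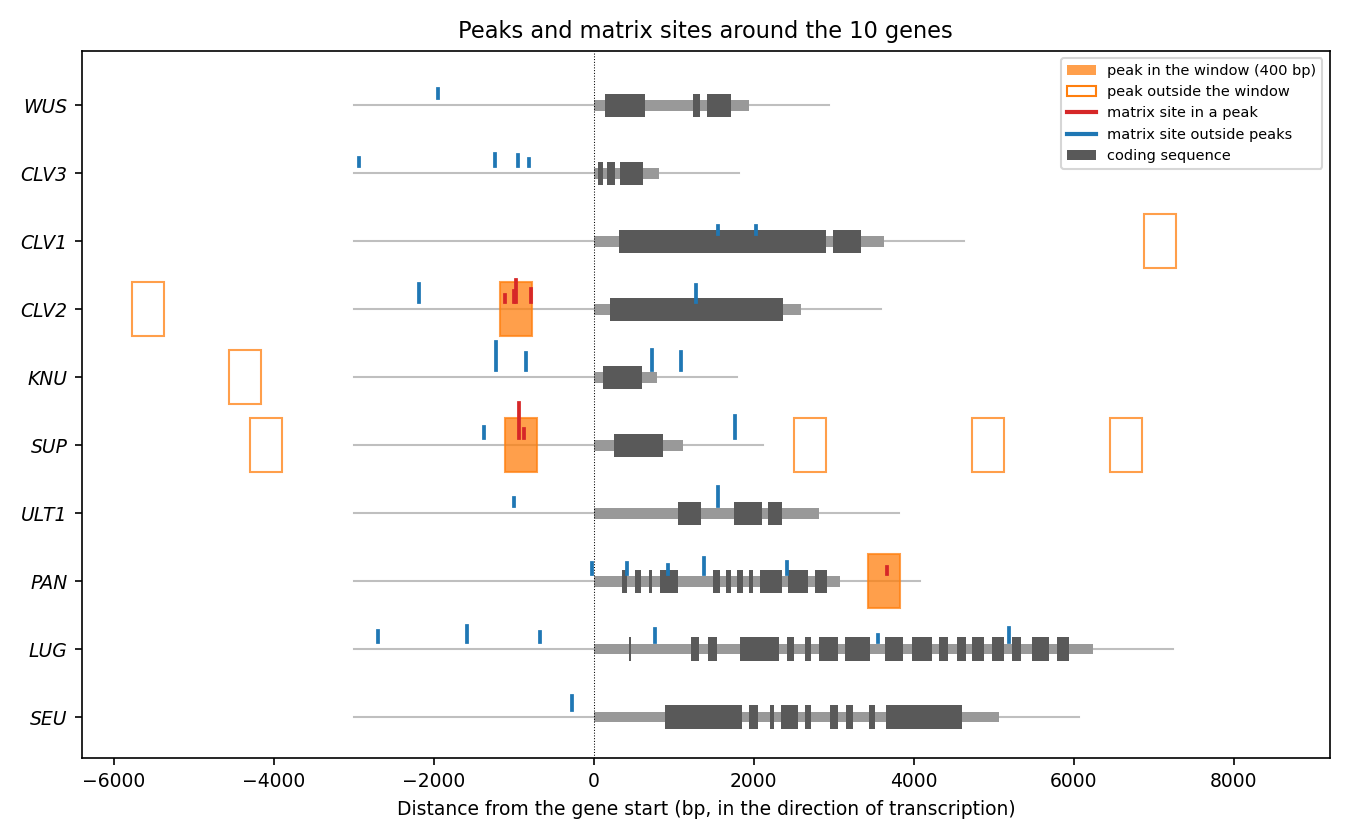
Windows of the 10 genes along the distance from the gene start in bp, with the gene in grey, coding sequence in dark grey and peaks as orange boxes 400 bp wide (filled in the window, open outside it). Vertical marks are matrix sites, taller for higher scores; SUP and CLV2 have sites in peaks centred 915 and 975 bp upstream, PAN has 1 downstream, and the other 7 genes have sites in no peak.

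**Figure D2:**
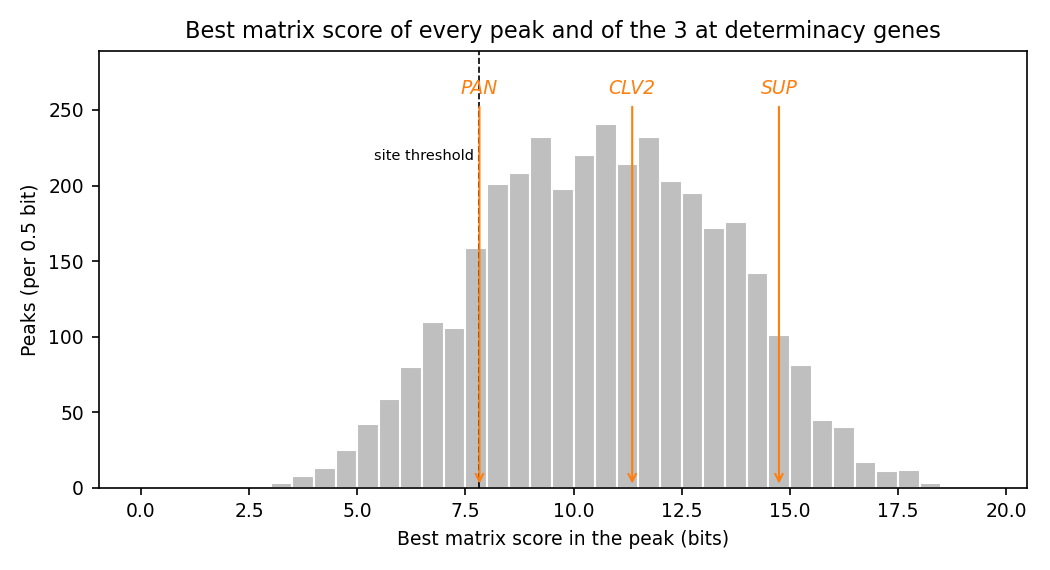
Number of peaks (vertical axis, per 0.5 bit) by the best matrix score in the peak (horizontal axis, bits) for all 3552 peaks. Arrows mark the peaks at SUP (14.7 bits), CLV2 (11.4 bits) and PAN (7.83 bits), which score above 92.6%, 58.0% and 15.7% of peaks by this matrix, while a matrix of the 10 bp core alone places CLV2 (25.3%) below PAN (32.5%); the dashed line is the site threshold of 7.80 bits.

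The background of 18.0% stands for 4945 of the 27444 protein-coding genes by the same window. The windows of the 10 genes were of 4787 to 10238 bp, with a median of 6702 bp against 6078 bp over all protein-coding genes. The density of matrix sites in them was near that of all windows, at 0.529 against 0.501 sites per kb. With 10 genes, 1 gene more or less moves the share by 10 percentage points, and the difference from the background was not tested.

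WUS, the target on which the pathway converges, had no peak within 10 kb, the nearest midpoint being 21705 bp upstream (AT2G17950, chromosome 2, 7808871 to 7810811, minus strand). Its window held 1 matrix site, and no box of the form C, then C or T, 6 bases of A or T, A or G, then G, which was present in 56.1% of all peaks. The site, of 8.31 bits, lay 1945 bp upstream of the start in an intron of AT2G17960 (chromosome 2, 7812749 to 7812764) and ended in a run of A.
WUS: taaagttttaCCAAAAAAAAaaaccagtat
This core occurred 8574 times in the genome and lay in a peak in 1.98% of cases (95% Wilson interval 1.71 to 2.30, counting error only). The best site of the window was lower than that of most genes, since 11.03% of protein-coding genes had a lower one.

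CLV3 and CLV1, the ligand and the receptor kinase of the loop, had no peak and also had weak sites. In the CLV3 window (AT2G27250, chromosome 2) the 4 sites scored 7.87 to 8.998 bits and all lay upstream, and the nearest peak was 25622 bp from the gene. In the CLV1 window (AT1G75820, chromosome 1) the 2 sites scored 7.98 and 8.12 bits and lay in the coding sequence. The nearest peak to CLV1 had its midpoint 3453 bp past the end of the gene, in an intron of AT1G75800, and its best score was 6.21 bits.

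KNU, the zinc finger repressor of WUS, had no peak. Of protein-coding genes with a best site between 13 and 14 bits in the window, 42.6% had one. The KNU window held the second best site of the 10 genes. This site scored 13.04 bits, more than the best site of 78.0% of all peaks, and lay 1227 bp upstream of the start (AT5G14010, plus strand of chromosome 5, 4522149 to 4522935). The window also held 2 canonical boxes, of which 1 reached the site threshold, with 10.9 bits in an untranslated exon of KNU. The 2 sites are shown because they scored highest in this window (chromosome 5, 4520915 to 4520930 and 4522872 to 4522887).
KNU upstream: tcataaattcCTAAATATAGaaataaaaag
KNU end: ctagctgctaCCTTTTTTGGatattactta
The other 2 sites scored 10.5 bits, 302 bp past the end, and 10.3 bits, 847 bp upstream. The 16 bp site upstream of KNU occurred 5 times in the genome, 1 of them in a peak. Its core occurred 444 times, 33 of them (7.43%, 95% Wilson interval 5.34 to 10.3) in a peak. The nearest peak to KNU was 4356 bp upstream of its start, outside the window, at the start of NAC084, with a best score of 8.42 bits.

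ULT1, LUG and SEU had neither a peak in the window nor one within 10 kb. At ULT1, a trithorax group factor (AT4G28190, chromosome 4), the better of 2 sites scored 10.7 bits and lay in an intron, and the nearest peak was 35532 bp from the gene. LUG, the co-repressor (AT4G32551, chromosome 4), had the longest window and 6 sites of 7.84 to 10.1 bits, among them a canonical box of 9.16 bits in an intron. Its nearest peak, at 43792 bp, was farther away than for 92.2% of protein-coding genes. SEU, the adaptor that binds LUG (AT1G43850, chromosome 1), had a single site of 9.47 bits, 267 bp upstream of its start, and its nearest peak was 15747 bp away. Of the 10 genes, 5, including WUS and CLV3, had no peak within 10 kb, near the share of 50.1% over all protein-coding genes.

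The windows of the 10 genes held 36 matrix sites, of which 7 (19.4%) lay in a peak, against 7.36% of the 59573 sites in the genome. The sites in the genome include those outside the windows of genes, and the share for gene windows alone is not given here. These 7 sites stand in 3 peaks and 4 of them in that of CLV2, so they are not independent. The share moved with the threshold: at 1 site per 1000 bp of the genome 7 of 69 sites in the windows lay in a peak (10.1%, against 5.03% over the genome), and at 1 site per 5000 bp 2 of 14 did (14.3%, against 12.1%). Over the genome, the share of sites in a peak rose with the score, from 3.95% of sites between 7.80 and 9 bits to 12.8% between 11 and 12 bits, 32.6% between 13 and 14 bits, and 47.7% between 14 and 16 bits. The site at SUP stood in the last of these ranges and the unbound site at KNU in the one before it. The site in the peak at PAN stood in the lowest range. The matrix was fitted to peaks of the same list, so the rise is a description of the list and not an independent test.

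The same was seen by gene. In windows whose best site was between 8 and 9 bits, as for WUS, CLV3 and CLV1, 6.61% of protein-coding genes had a peak. The share was 9.63% between 9 and 10 bits (PAN and SEU), 14.3% between 10 and 11 bits (ULT1 and LUG), 21.5% between 11 and 12 bits (CLV2), 42.6% between 13 and 14 bits (KNU) and 64.0% from 14 bits (SUP). Among the 10 genes, SUP and CLV2 were bound, KNU with a site between theirs in score was not, and PAN was bound by a peak whose site was not the best of its window. The best site of a bound gene can be that of its own peak, so these shares too are a description.

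**Figure D3:**
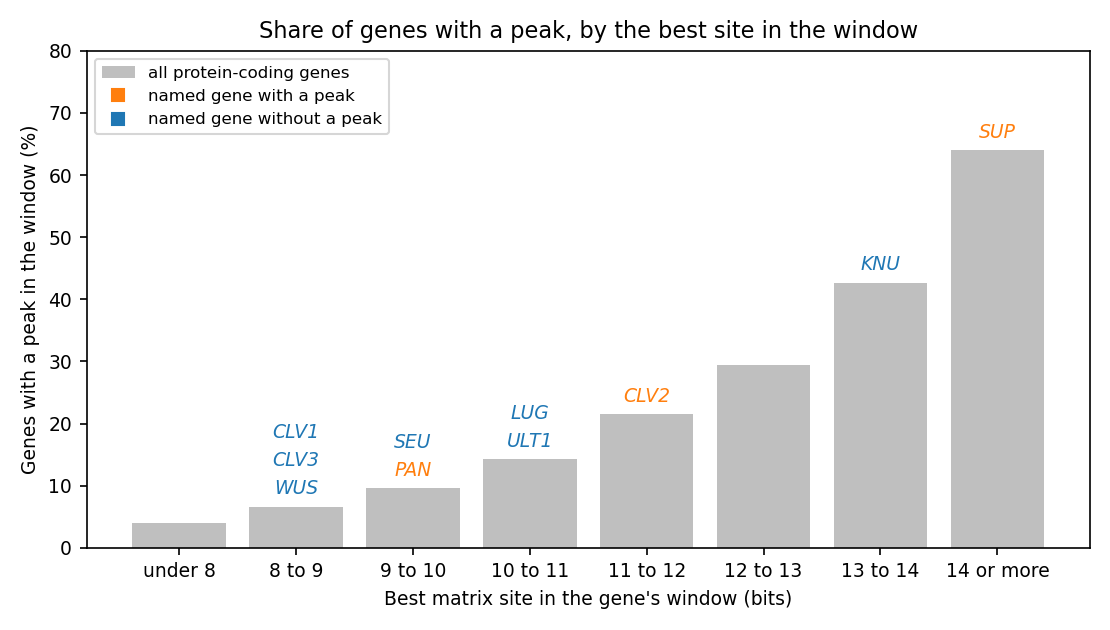
Share of protein-coding genes with a peak in the window (vertical axis, %) by the best matrix site in that window (horizontal axis, bits), as grey bars, with the 10 genes placed over their class (orange with a peak, blue without). The share is 6.61% in the class of WUS, CLV3 and CLV1, 42.6% in that of KNU and 64.0% in that of SUP; the height of a name has no meaning.

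SUP stood apart in the number of peaks around it. Besides the peak in its promoter, 4 peaks lay within 10 kb of the gene but outside its window, 1 at 4100 bp before the start and 3 at 1587, 3812 and 5531 bp past the end. The nearest other protein-coding gene was 7146 bp away, and all 5 peaks fell between its neighbours AT3G23122 and URO. Of the 27444 protein-coding genes, 34 (0.124%), SUP included, had 5 or more peaks within 10 kb, where the median was 0 and the highest 6. This distance was chosen after the peaks had been seen, and neighbouring genes can share the same peaks, so the count is a description.
The peak 1587 bp past the end, from 8244759 to 8245158, was the strongest of those outside the window by its best site of 14.4 bits, above 90.7% of peaks and 1 bp from the midpoint. SUP had the nearest gene start, 2703 bp away. Its site is given with that of the 2 peaks farther downstream.
SUP, 1587 bp past the end: gatgagctttCCTTTTATAGtaagttatgt
SUP, 3812 bp past the end: tagagcatttCTATATATGCatacactatt
SUP, 5531 bp past the end: tagagcatttCTATATATGCatacactatt
The last 2 peaks had the same site of 8.88 bits, and their sequences shared an identical run of 159 bp. A read that lies wholly within such a run could come from either copy, and its part in these 2 peaks was not tested. A canonical box in the SUP window, 652 bp past the end of the gene with 11.6 bits (ctaCCTTTTTAGGtaa), lay in no peak.

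**Figure D4:**
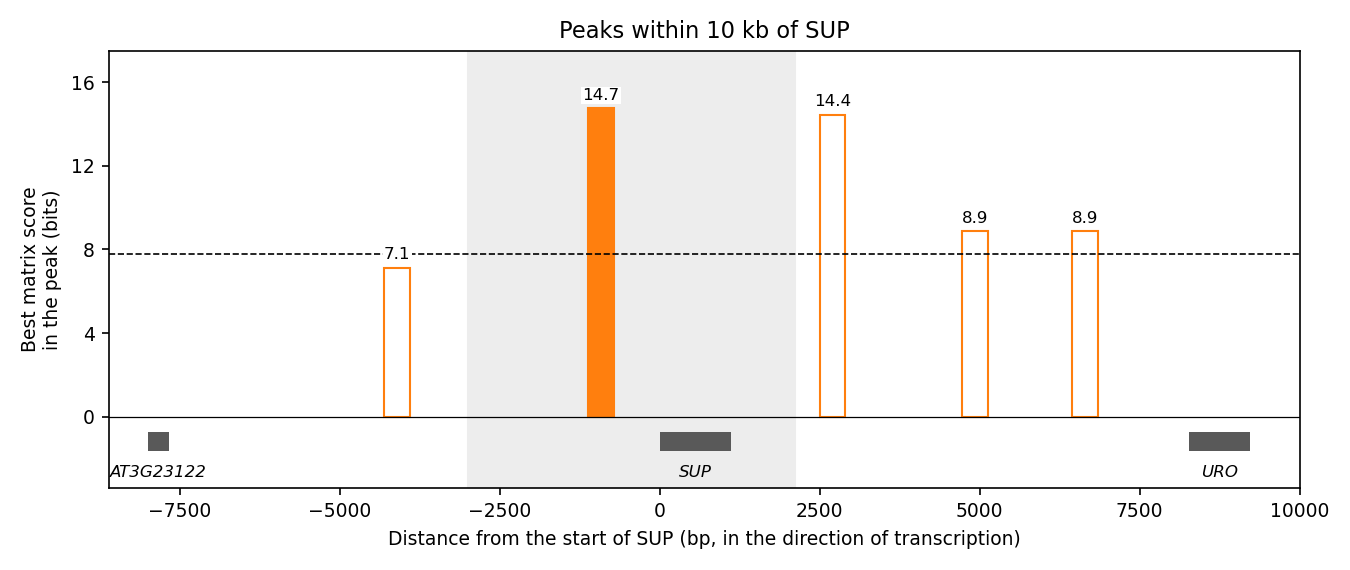
Best matrix score (vertical axis, bits) of the 5 peaks within 10 kb of SUP against the distance from its start (horizontal axis, bp), with bars as wide as the peaks, the window shaded, and SUP and its neighbouring genes below. The peaks 915 bp upstream and 1587 bp past the end score 14.7 and 14.4 bits, the other 3 score 7.13 to 8.88 bits, and the dashed line is the site threshold.

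At the limits of the window, the peak just inside was that of PAN, 558 bp past the end where 1000 bp was allowed. Those just outside were the peak 1587 bp past the end of SUP and, upstream, where 3000 bp was allowed, the peaks 4100 bp from SUP and 4356 bp from KNU. CLV2 had another peak 5571 bp upstream, which held a canonical box (10.6 bits) 166 bp upstream of AGL23, a type I MADS gene.

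Other genes of the pathway were bound to differing extents by the same rule, against the background of 18.0%. Of 11 matched genes of CLAVATA signalling 2 had a peak (18.2%), ERL2 with a best score of 12.4 bits in a peak over an untranslated exon and BAM2, a receptor kinase related to CLV1, with 12.1 bits in a peak centred 69 bp before the gene. Of 16 genes that act with WUS or maintain the meristem 6 had a peak (37.5%), led by FHY3 with 14.7 bits, ARR12 with 14.1 bits, HEC3 with 13.1 bits and HAM1, a partner of WUS, with 10.9 bits. The peak of FHY3 was also upstream of AT3G22180, and that of ARR12 lay in an untranslated exon of PKL. Of 19 factors of floral determinacy 8 had a peak (42.1%), led by JAG with 15.4 bits, AG itself with 14.9 bits in an intron, SPT with 13.7 bits and NUB with 12.4 bits. AG had another peak, centred 160 bp before its start, with 8.28 bits. The peak of JAG lay 221 bp past its end, and that of NUB, 2999 bp upstream, lay close to the start of AT1G13390. Of 10 co-repressors and partners SLK1 and SLK2, relatives of SEU, were bound (20%), with 13.4 and 13.5 bits, the peak of SLK1 lying upstream of FWA. Of 9 chromatin factors FIE and BRM were (22.2%), with 12.2 and 13.7 bits. In all, 20 of 65 matched genes had a peak (30.8%), the same share to within 1 percentage point as the 3 of 10. The genes named are those with the highest scores, and some other counted peaks were below the site threshold, down to 4.31 bits. With peaks that held a matrix site, 17 of the 65 were bound (26.2%), against 15.6% of all protein-coding genes. The differences between the lists were not tested.

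**Figure D5:**
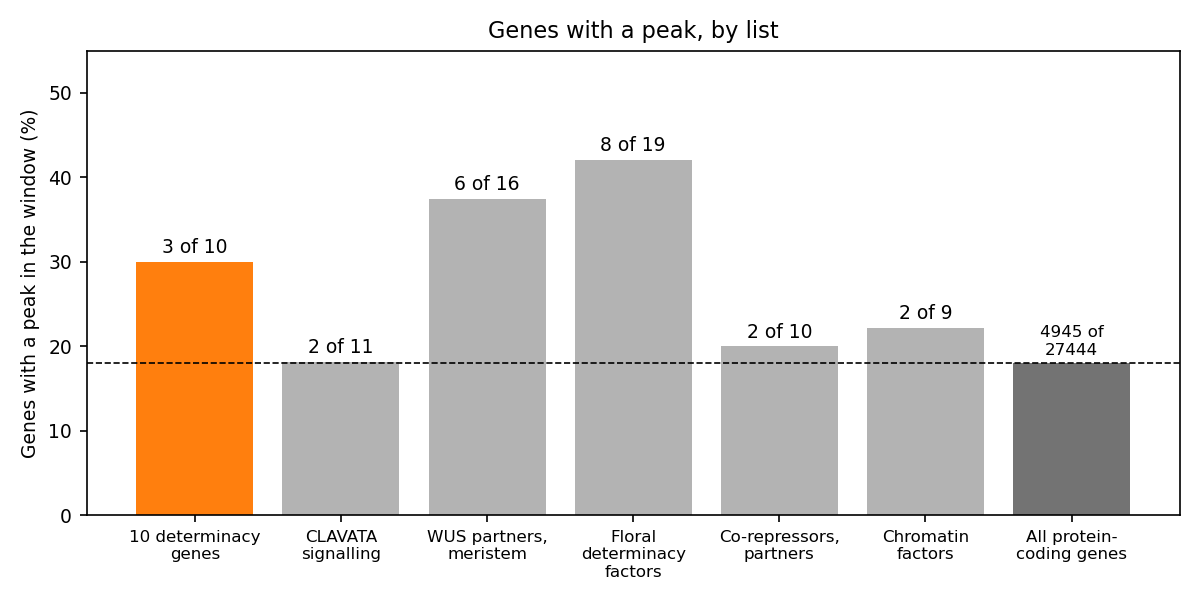
Share of genes with a peak in the window (vertical axis, %) for the 10 determinacy genes, 5 lists of other pathway genes and all protein-coding genes, with the counts over the bars. The 10 genes stand at 30%, the lists between 18.2% and 42.1%, and the dashed line is the 18.0% of all protein-coding genes.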

How the data were processed

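Per the study's methods, the authors trimmed adaptors with NGmerge, mapped reads with Bowtie2 to TAIR10 without organelle genomes, removed duplicates with SAMtools, called peaks per replicate with MACS2 against input DNA, joined the 3 replicates with MSPC, split peaks with several maxima and gave every peak a width of 400 bp around its maximum. For the versions: not given in the sources used here. Deposited values are chromosome, start and end of each peak (positions, with no score), so how strictly peaks were called and joined decides whether a gene counts as bound.

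Genes were matched by symbol or synonym to the RefSeq annotation of TAIR10.1, whose nuclear chromosomes hold all peaks. All 10 members matched, as did 65 of 69 other pathway genes (CIK1, CIK2, CIK3 and CIK4 did not). Coordinates count from 1. The matrix was fitted by expectation maximisation (30 iterations, 0 or 1 site per peak). The fitted share of peaks with a site ended at 99%, the upper limit set. The fit was tested on simulated data. In a sizeable minority of the simulated sequences with a planted site, the best site lay elsewhere. Python 3.11.15, numpy 2.4.6, scipy 1.17.1 and matplotlib 3.10.9 were used.

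Members, lists and windows were chosen with earlier results of these data known. Named are all 10 members, their peaks and best unbound sites, and up to 4 genes with a peak of each other list by highest score, and the genes that share or start nearest to a member's peak.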

Additional observations from a re-analysis of the deposited data

How the results depend on the processing

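SUP and CLV2 had a peak under each window tried, and PAN in all but the narrower ones (1000 bp upstream to the gene end, 1500 bp upstream to 500 bp downstream), where 2 of 10 genes were bound, against 9.91% and 12.97% of all protein-coding genes. With the nearest gene start alone 1 gene was bound (SUP), against 11.7% of all, and from 5000 bp upstream to 2000 bp downstream 4 genes with 6 peaks, KNU being the fourth; the share of all protein-coding genes was then 25.3%. In the narrowest window 11 of the 65 other pathway genes had a peak (16.9%, beside 9.91% of all genes), and 20 in the window used (30.8%, beside 18.0%). A box with at most 1 mismatch was in all 3 peaks, but also in 79.955% of all peaks of the series. The canonical form was in 1 of the 3, and in 15.96% of all peaks. At 1 site per 5000 bp of the genome 2 of 14 sites of the 10 windows lay in a peak, and 7 of 36 at the threshold used. The share of all peaks with a lower best score depended on the matrix. Without the palindrome constraint it was 83.3% for CLV2, 98.8% for SUP and 27.8% for PAN. With the 10 bp core alone it was 25.3% for CLV2, 94.5% for SUP and 32.5% for PAN. With an even base composition it was 63.2% for CLV2, 89.1% for SUP and 39.8% for PAN, and in the central 200 bp 18.2% for PAN. SUP was the highest of the 3 in each case, and PAN was below CLV2 except with the core alone; the cause was not tested. No paired analysis was possible because the deposited list joins the replicates, which also prevents leaving out each replicate in turn. A stricter peak threshold could be set only by the presence of a matrix site, which 15.5% of all peaks lacked. This left the same 3 genes, against 15.6% of all protein-coding genes. PAN stayed by a site of 7.83 bits, just over the threshold of 7.80 bits.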

Other observations

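The 16 bp site of the SUP promoter peak occurred at 1 other place in the genome, on chromosome 4 from 13015407 to 13015422, 820 bp downstream of the start of CBF2, a transcription factor gene of the cold response, and that copy was in a peak too. The core of this site alone was in a peak in 79 of its 698 occurrences (11.3%, 95% Wilson interval 9.18 to 13.9). Both were looked up after the site had been seen.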
